A study of Pan troglodytes with 217 samples.

Results

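The ferritin and iron transport genes described here are 9 genes taken by name: the ferritin chains FTH1 and FTL, the uptake genes TFRC, TF, SLC11A2, SLC39A14 and SLC39A8, the exporter SLC40A1, and the haem oxygenase HMOX1. Each matched 1 of the 33729 gene identifiers counted. Of the 9, 8 had reads in at least 20 of the cells analysed, and TF did not. They were followed in single cells of day 4 chimpanzee blastoids that had reads on at least 8000 genes, which 24 of the sequenced cells did not reach.

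Blastoids are blastocyst-like structures grown from naive pluripotent stem cells (PSCs). The chimpanzee naive cells had been kept in N2B27 with PD0325901, XAV939, Gö6983, human LIF, Activin-A, IL6 and EPZ-6438 (the medium is called AE6 or PXGL-A6E). EPZ-6438 is an inhibitor of the histone methyltransferase EZH2. They then passed through PALY (PD, A83, LPA and Y-27632), ALY, which lacks PD, and plain N2B27. Mural trophectoderm was cut off with a needle and dissociated apart from the remainder, and single cells were sequenced with SMART-seq2, which carries no molecular identifiers. The order of media was common to all cells, but the handling was not. By the study's methods, mural trophectoderm stayed longer in the dissociation enzyme than the remainder, and clusters could be formed in alternative ways. No label tells which blastoid, line, plate, dissected part or protocol a cell came from. The part of handling in differences between trophectoderm-like and other cells was not tested. With 1 sample and no replicates no test was made, and differences are described by their size and by the spread over cells.

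Iron enters most cells on transferrin, which binds the transferrin receptor, is taken into endosomes and releases its iron for transport into the cytosol. Iron that is not used is held inside ferritin, a shell built of heavy and light chains, and leaves the cell through ferroportin. Ferritin translation and the stability of transferrin receptor mRNA are controlled by iron regulatory proteins, so mRNA counts do not give protein. In the placenta this system carries iron from the mother to the fetus, and trophectoderm is the founder of placental trophoblast.

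Clustering gave 50 epiblast-like cells, 32 hypoblast-like cells and 2 trophectoderm-like clusters, with 60 cells low and 51 cells high in the polar trophectoderm marker CCR7. Levels are in CPM, reads per 1e+06 reads on genes, with reads summed over the cells of a class. Each class was highest for its own marker list, but the clusters were named from these lists, so this is no separate check on identity. The epiblast list summed to 5261 CPM in its own class and to at most 1309 CPM elsewhere, the hypoblast list to 2056 against at most 167.6 CPM, and the trophectoderm list to 11024 against at most 2755 CPM. Lists for extraembryonic mesoderm, erythroid cells and macrophages had 0 genes at 1 CPM or more in any class. Of 5 amnion markers, 4, 3 and 2 were at 1 CPM or more in epiblast-like, hypoblast-like and trophectoderm-like cells. Their summed level was 308, 335 and 49.5 CPM, mostly from BAMBI in the first pair of classes (288 and 329 CPM). ISL1 was at 14.7 CPM in epiblast-like cells, with a read in 38 of 50, and VTCN1 at 34.8 CPM in trophectoderm-like cells. Median depth per cell was 3951119 reads in the epiblast-like class, 3978822 in the hypoblast-like class and 3960857 in the trophectoderm-like class. The genes described were among those clustered on, and clustering without them and their pathway genes gave classes of the same sizes, although the trophectoderm-like cells were then divided into 72 CCR7-low and 39 CCR7-high cells. Intervals below are exact 95% intervals. Those of CPM cover the counting error of reads only, and copies of 1 cDNA molecule are counted repeatedly. Those of shares of cells and of medians are over the cells of this 1 sample and do not stand for the error between replicates.

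Members were called higher or lower where the ratio of CPM + 1 was at least 2-fold. Of the 8 members read in at least 20 cells, 5 were higher in trophectoderm-like than in epiblast-like cells (FTH1, FTL, SLC39A14, SLC40A1 and HMOX1) and 0 were lower. Of all 15561 genes read in as many cells, 7.71% were higher and 15.2% lower in this comparison. The median member had a log2 ratio of 1.37, against -0.07 over all genes. In hypoblast-like over epiblast-like cells 2 members were higher (FTH1 and SLC39A14) and 0 lower, against 4.02% and 10.8% of all genes. In trophectoderm-like over hypoblast-like cells 3 were higher (SLC39A8, SLC40A1 and HMOX1) and 0 lower, against 8.3% and 8.68%. Within the trophectoderm-like cells, CCR7-high over CCR7-low, 2 were higher (SLC39A8 and SLC40A1) and 0 lower, against 5.57% and 4.03%. SLC39A8 was read in 26 cells, of which 19 were trophectoderm-like and 15 CCR7-high, so it passed the limit of 20 cells only through the cells in which it was higher, and its place in the counts of the last 2 comparisons is no support for them. Without it, a choice made after seeing the data, 2 of 7 and 1 of 7 members were higher.

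**Figure D1:**
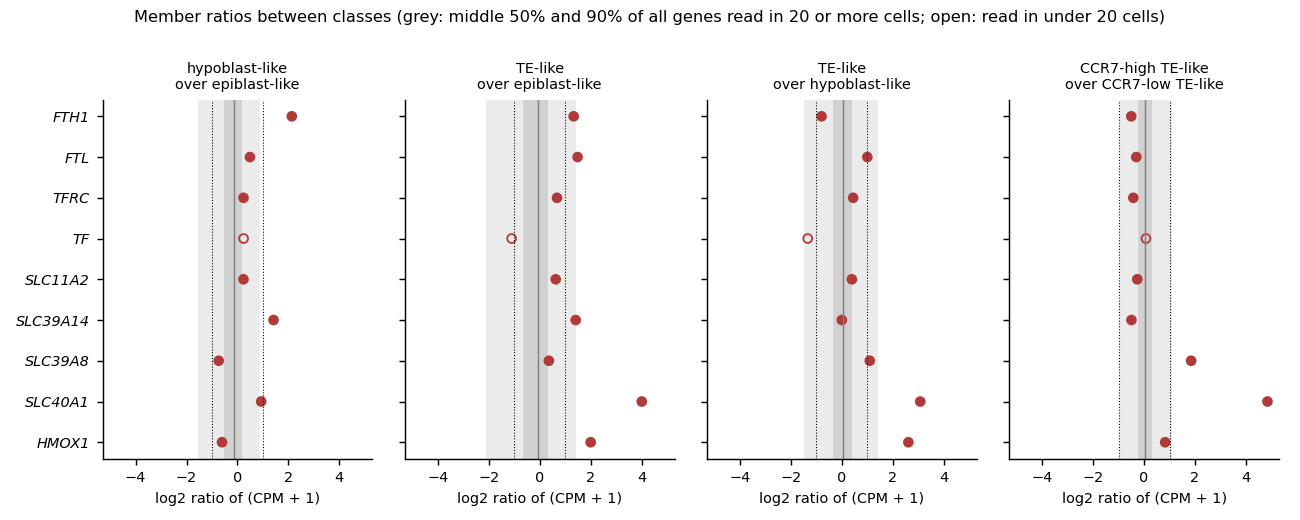
Log2 ratio of CPM + 1 (horizontal axis) for each of the 9 members in 4 comparisons of classes, with TE for trophectoderm. Bands mark the middle 50% and 90% of all 15561 genes, dotted lines mark 2-fold, and the open circle is TF, read in under 20 cells; SLC40A1 lies farthest right in the 3 comparisons that involve trophectoderm-like cells, and FTH1 in hypoblast-like over epiblast-like cells.

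FTH1 encodes the ferritin heavy chain, which oxidises iron as it enters the shell. Its reads were most frequent in hypoblast-like cells, at 12887 CPM (12867 to 12906). Trophectoderm-like cells had 7407 CPM (7400 to 7415), and epiblast-like cells 2936 CPM (2929 to 2943). The lowest, median and highest cell had 782, 2162 and 11233 CPM among epiblast-like cells and 1754, 11977 and 28741 CPM among hypoblast-like cells. The gene was read in every cell and the ranges overlapped, although 31 of 32 hypoblast-like cells lay above the median epiblast-like cell and 16 lay above the highest one. The hypoblast-like level was 4.39 times the epiblast-like level (log2 ratio 2.13). Trophectoderm-like cells ran from 1397 to 23312 CPM with a median of 6569 CPM, 2.52 times the epiblast-like level when summed (log2 ratio 1.33). CCR7-low cells were at 8646 CPM and CCR7-high cells at 6095 CPM, a log2 ratio of -0.50 for high over low. The order was thus hypoblast-like, CCR7-low, CCR7-high and epiblast-like, and the middle 50% of cells overlapped between each pair of neighbours in it. With Leiden clustering on UMAP coordinates the log2 ratio of trophectoderm-like over epiblast-like cells was 0.77, under 2-fold.

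FTL, the light chain, which helps the iron core to form inside the shell, had another order. It was highest in trophectoderm-like cells, at 6452 CPM (6445 to 6459), followed by hypoblast-like cells at 3228 CPM (3218 to 3238) and epiblast-like cells at 2297 CPM (2291 to 2304). Single trophectoderm-like cells ran from 1043 to 16969 CPM with a median of 6205 CPM. Hypoblast-like cells ran from 758 to 6999 CPM with a median of 2899 CPM, and epiblast-like cells from 350 to 8523 CPM with a median of 1471 CPM. The ranges overlapped, but 58 of 60 CCR7-low and 50 of 51 CCR7-high cells lay above the epiblast-like median, and 55 and 46 lay above the hypoblast-like median. FTL was 2.81 times higher in trophectoderm-like than in epiblast-like cells (log2 ratio 1.49). Against hypoblast-like cells the ratio fell just short of 2-fold, with a log2 ratio of 0.999, and 10 of 21 alternative settings placed it past 2-fold. For hypoblast-like over epiblast-like cells the log2 ratio was 0.49.

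**Figure D2:**
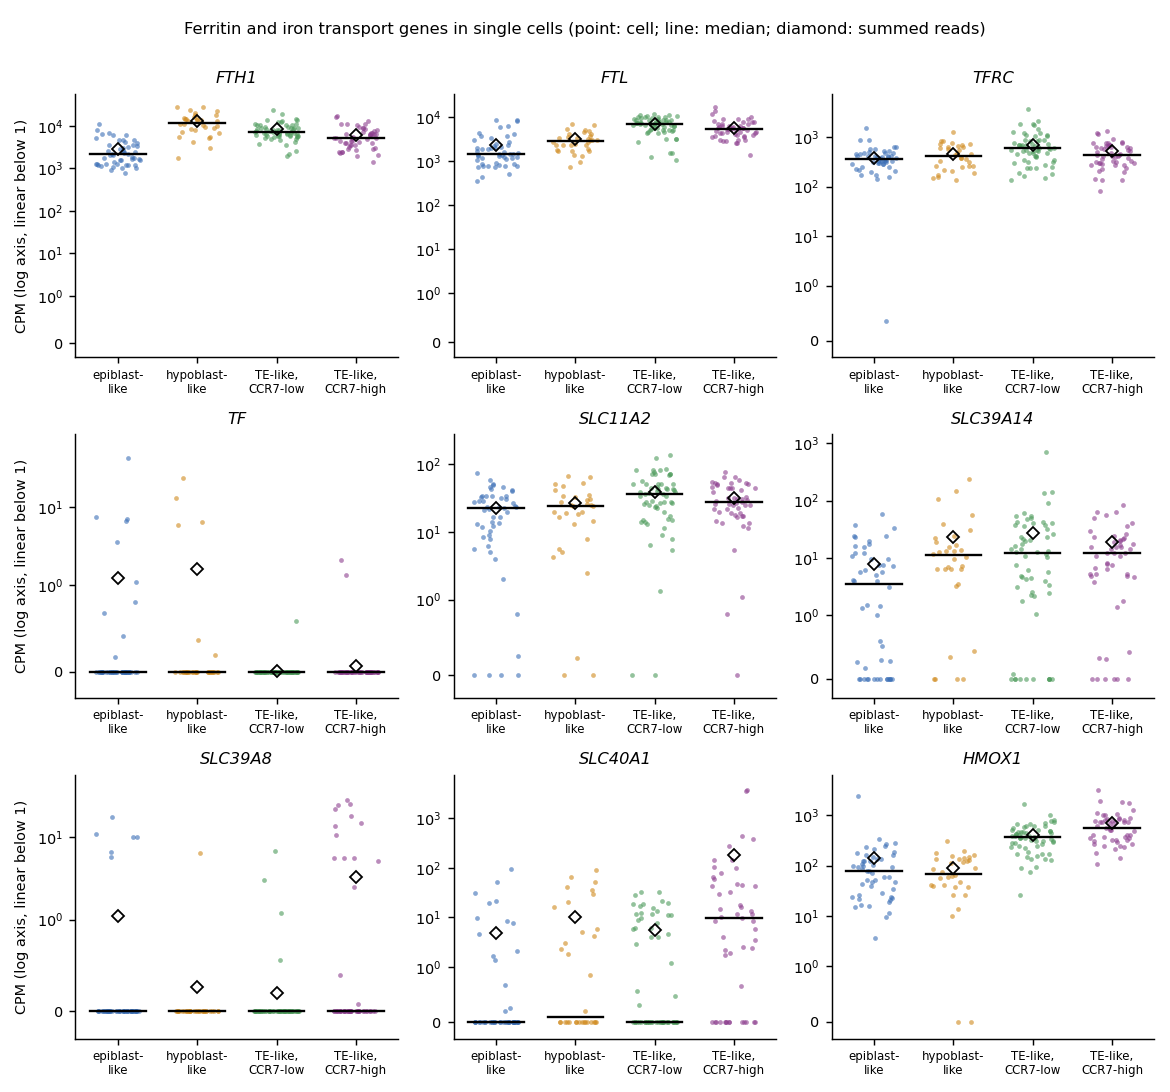
CPM per cell (vertical axes, logarithmic and linear below 1) of the 9 members in the 4 clusters. Points are cells, lines are medians over cells and diamonds are CPM of summed reads; FTH1 and FTL are read in every cell, TF and SLC39A8 are at 0 in most cells, and 2 CCR7-high cells stand apart for SLC40A1 at 3712 and 3558 CPM.

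The balance of heavy and light chain reads was compared within each cell, where depth cancels. FTH1 made up a median of 79.9% of the ferritin reads of a cell in hypoblast-like cells (74.98% to 82.96%). The median was 58.8% (55.1% to 62.3%) among epiblast-like cells and 51.8% (48.6% to 54.4%) among trophectoderm-like cells. Single cells ran from 52.8% to 92.4%, from 20.8% to 82.3% and from 28.5% to 81.2% in the same order. The classes overlapped, and 22 hypoblast-like, 7 epiblast-like and 3 trophectoderm-like cells lay above 75%. FTH1 had more reads than FTL in 32 of 32 hypoblast-like cells, 36 of 50 epiblast-like cells (57.5% to 83.8%), 36 of 60 CCR7-low cells (46.5% to 72.4%) and 23 of 51 CCR7-high cells (31.1% to 59.7%). The 2 trophectoderm-like clusters had medians of 52.7% (49.2% to 57.3%) and 48.8% (45.5% to 53.7%), CCR7-low first. The share was lower in cells with more detected genes in part of the clusters. The Spearman correlation was -0.35 in epiblast-like, -0.34 in hypoblast-like, -0.31 in CCR7-low and -0.04 in CCR7-high cells. The hypoblast-like share lay between 78.3% and 80.5% over 17 alternative settings. Those that changed only the totals could not alter it, since the share is taken within a cell.

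**Figure D3:**
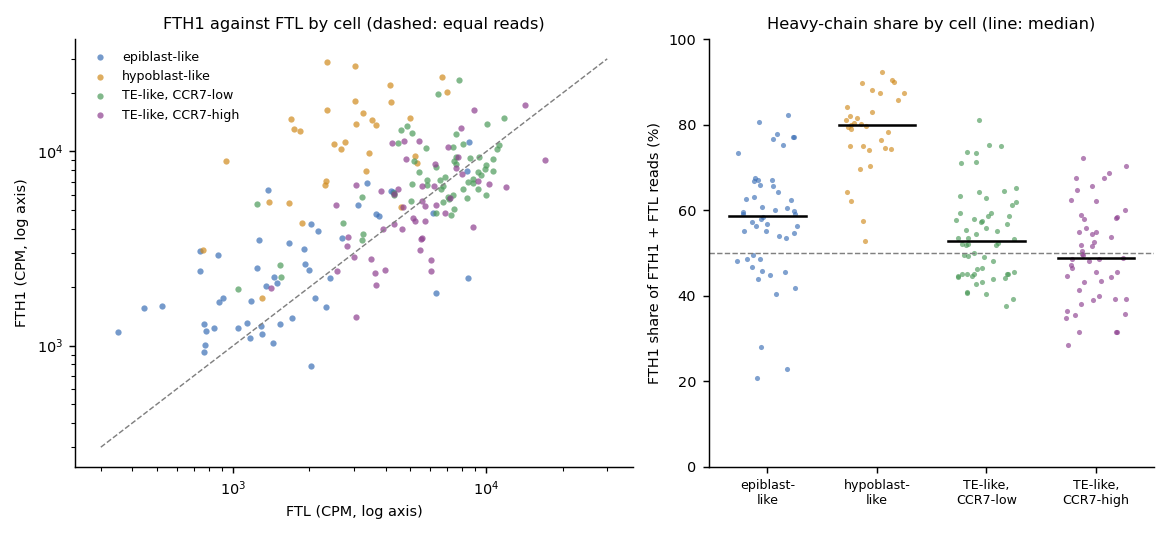
Left, FTH1 against FTL in CPM on logarithmic axes, 1 point per cell, with a dashed line where both have equal reads. Right, the FTH1 share of ferritin reads per cell in percent with the median as a line; all 32 hypoblast-like cells lie above 50%, with a median of 79.9%, and trophectoderm-like cells lie on both sides of 50%.

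Ferritin reads together made up a median of 1.47% (1.13% to 1.86%) of the reads of a hypoblast-like cell. The median was 1.301% (1.19% to 1.49%) for trophectoderm-like and 0.378% (0.283% to 0.478%) for epiblast-like cells. Some identifiers without a symbol rose and fell with the ferritin genes from cell to cell. The one most like FTH1 (ENSPTRG00000030979) had a Spearman correlation of 0.97 over all cells that passed, and its reads came to 1.24%, 1.28% and 1.17% of the FTH1 reads in epiblast-like, hypoblast-like and trophectoderm-like cells. The one most like FTL (ENSPTRG00000041932) had a correlation of 0.92 and 0.0702%, 0.0697% and 0.0717% of the FTL reads. Ferritin genes have near-identical processed copies in primate genomes, so counting may divide reads between copies and the levels are uncertain to that extent; whether these identifiers are such copies was not tested.

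TFRC encodes the transferrin receptor. It was at 386 CPM (383 to 389) in epiblast-like, 455 CPM (452 to 459) in hypoblast-like and 619 CPM (617 to 622) in trophectoderm-like cells. Cells ran from 0.35 to 1526 CPM, from 136.3 to 1266 CPM and from 81.7 to 3744 CPM, with medians of 362, 412 and 529 CPM. The classes overlapped over most of their ranges, and 1 epiblast-like cell was under 10 CPM. No ratio reached 2-fold, the largest being a log2 ratio of 0.68 for trophectoderm-like over epiblast-like cells. CCR7-low cells (707 CPM) were above CCR7-high cells (527 CPM), with a log2 ratio of -0.42 for high over low, and 42 of 60 CCR7-low cells lay above the CCR7-high median. With Leiden on UMAP coordinates the log2 ratio of trophectoderm-like over hypoblast-like cells was 1.08, past 2-fold.

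TF, the transferrin gene itself, was almost absent. It had reads in 10 of 50 epiblast-like cells, 6 of 32 hypoblast-like cells, 1 of 60 CCR7-low cells and 2 of 51 CCR7-high cells. The summed level was 1.22, 1.63 and 0.0368 CPM in the epiblast-like, hypoblast-like and trophectoderm-like classes, and 44.5%, 56.5% and 68.4% of those reads came from the highest cell of each. These levels rest on single cells, and TF was left out of the counts of members. Of 7 other plasma carrier genes matched, such as ALB, AFP and TTR, 0 had reads in at least 20 cells.

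SLC11A2, the divalent metal transporter that moves iron out of endosomes, was at 22.2 CPM (21.5 to 22.8) in epiblast-like, 26.3 CPM (25.4 to 27.2) in hypoblast-like and 34.8 CPM (34.3 to 35.3) in trophectoderm-like cells. The medians were 22.1, 24.1 and 30.2 CPM, the highest cells 72.1, 65.1 and 134.9 CPM, and each class also held cells at 0. The classes overlapped over nearly all of this range. It reached 10 CPM in 36 of 50 epiblast-like, 24 of 32 hypoblast-like, 53 of 60 CCR7-low and 47 of 51 CCR7-high cells. No ratio reached 2-fold, in the main setting or in the 21 or 22 alternatives.

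SLC39A14 and SLC39A8 encode ZIP14 and ZIP8, which carry iron, zinc and manganese across the plasma membrane. SLC39A14 was at 7.96 CPM (7.58 to 8.34) in epiblast-like, 22.9 CPM (22.1 to 23.8) in hypoblast-like and 22.9 CPM (22.5 to 23.3) in trophectoderm-like cells. The medians were 3.49, 11.03 and 12.04 CPM and the highest cells 58.3, 237.3 and 717 CPM, and every class held cells at 0. It reached 10 CPM in 13 of 50 epiblast-like (26%, 14.6% to 40.3%), 17 of 32 hypoblast-like (53.1%, 34.7% to 70.9%), 33 of 60 CCR7-low and 28 of 51 CCR7-high cells. The log2 ratios over epiblast-like cells were 1.42 for hypoblast-like and 1.41 for trophectoderm-like cells. Without the 2 highest cells of each group the first was 0.90, under 2-fold, and the second 1.33. With a pseudocount of 10 both were 0.87.

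SLC39A8 was sparse. It had reads in 15 of 51 CCR7-high cells, 4 of 60 CCR7-low cells, 6 of 50 epiblast-like cells and 1 of 32 hypoblast-like cells. The levels were 3.30 CPM (3.08 to 3.54), 0.196 CPM (0.146 to 0.257), 1.11 CPM (0.970 to 1.26) and 0.265 CPM (0.183 to 0.370). A single CCR7-low cell held 73.1% of the reads of its cluster, and without it the level was 0.0538 CPM; without the 1 hypoblast-like cell that level was 0. The median cell of every cluster was at 0, and the highest CCR7-high cell had 28.6 CPM. After thinning each cell to 2532312 reads, 13 of 46 CCR7-high and 3 of 54 CCR7-low cells still had a read. The log2 ratio of CCR7-high over CCR7-low cells was 1.85, and with a pseudocount of 10 it was 0.38, under 2-fold. For trophectoderm-like over hypoblast-like cells, which had a read in 1 cell, it was 1.10, and it fell under 2-fold in 3 of 21 alternatives: Leiden on UMAP coordinates, the median of single-cell CPM and a pseudocount of 10.

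SLC40A1 encodes ferroportin, the iron exporter of animal cells. It was at 92.3 CPM (91.5 to 93.2) in trophectoderm-like, 10.1 CPM (9.52 to 10.6) in hypoblast-like and 4.80 CPM (4.51 to 5.10) in epiblast-like cells. A single epiblast-like cell held 40.9% of the reads of its class, and without it the level was 2.90 CPM. The trophectoderm-like reads divided into 184.4 CPM (182.7 to 186.1) in CCR7-high cells and 5.45 CPM (5.17 to 5.74) in CCR7-low cells, a log2 ratio of 4.85. The lowest cell was at 0 in every cluster, and the median cell had 9.81 CPM among CCR7-high, 0 among CCR7-low, 0.0959 CPM among hypoblast-like and 0 among epiblast-like cells. The highest cells had 3712, 32.9, 89.2 and 93.8 CPM in the same order. The clusters overlapped at their lower ends and parted at their upper ends. The gene reached 10 CPM in 25 of 51 CCR7-high cells (49.02%, 34.75% to 63.4%), 15 of 60 CCR7-low cells (25%, 14.7% to 37.9%), 8 of 32 hypoblast-like cells (25%, 11.5% to 43.4%) and 5 of 50 epiblast-like cells (10%, 3.33% to 21.8%).

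Few cells carried most of these reads. The 2 highest CCR7-high cells, at 3712 and 3558 CPM, held at least 50% of the reads of their cluster, and 6 cells held at least 90%. The next cells had 435, 379 and 279.7 CPM. In all, 8 CCR7-high cells reached 100 CPM, against 0 cells of the other clusters. Without the 2 highest cells the CCR7-high level was 42.4 CPM and the trophectoderm-like level 22.99 CPM. Leaving out the 2 highest cells of each group gave log2 ratios of 3.03 for CCR7-high over CCR7-low, 2.88 for trophectoderm-like over epiblast-like and 1.52 for trophectoderm-like over hypoblast-like cells, all still past 2-fold. Both cells had many detected genes, 13134 and 13163, where the cluster ran from 8991 to 13553. At a clustering resolution of 1.5 they joined 10 epiblast-like cells in a cluster of 12, and the log2 ratio of trophectoderm-like over epiblast-like cells was then -2.79. The ratio of hypoblast-like over epiblast-like cells was less settled: its log2 value was 0.93, under 2-fold, and 9 of 21 alternatives placed it past 2-fold in one direction or the other, from -3.90 at this resolution to 1.36 without the 2 highest cells of each group. Their epiblast markers summed to 1747 and 2364 CPM and their trophectoderm markers to 10696 and 6017 CPM. Whether they were doublets was not tested.

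Markers of syncytiotrophoblast, the fused hormone-secreting layer of the placenta, moved with SLC40A1 between the clusters. Their summed level was 967 CPM in CCR7-high cells (0 to 14337 CPM in single cells), 21.97 CPM in CCR7-low cells, 54.6 CPM in hypoblast-like cells and 18.6 CPM in epiblast-like cells. All 4 genes matched were at 1 CPM or more in CCR7-high cells, and at least 3 of the 4 reached 10 CPM in 8 of 51 of these. CGA, the hormone subunit among them, was at 10 CPM or more in 27 CCR7-high cells, where SLC40A1 was at 339 CPM (336 to 342), and under it in 24, where SLC40A1 was at 23.6 CPM (22.8 to 24.5). The first level rests on the 2 highest cells, both with CGA, and was 61.9 CPM over the other 25 cells. The median cell had 8.38 CPM of SLC40A1 with CGA and 10.7 CPM without, while 7 cells with CGA and 1 without reached 100 CPM. The 2 highest SLC40A1 cells had 450 and 578 CPM of CGA, 166.4 and 1081 CPM of SDC1, and 133.5 and 214.6 CPM of ERVFRD-1, an envelope gene used in cell fusion. INSL4, the remaining gene of the 4 matched, was at 0 in both. Across the 51 cells, which share 1 sample, the Spearman correlation of SLC40A1 was 0.14 with CGA, 0.30 with SDC1 and 0.37 with ERVFRD-1. The part of syncytiotrophoblast-like cells in the SLC40A1 level was not tested.

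**Figure D4:**
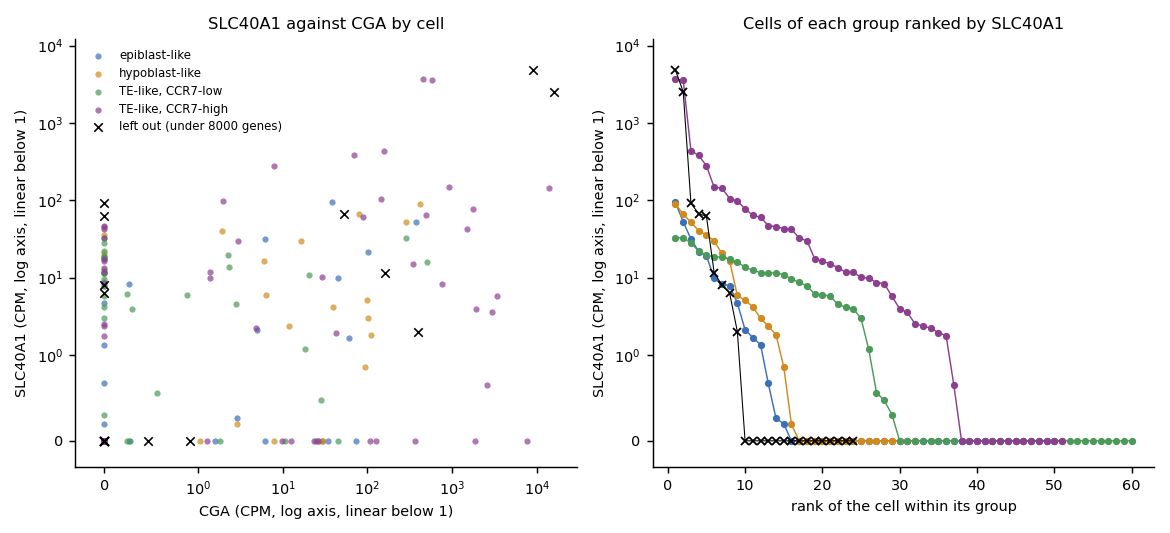
Left, SLC40A1 against CGA in CPM (logarithmic axes, linear below 1), 1 point per cell, with crosses for the 24 cells left out for having under 8000 detected genes. Right, cells of each group ranked by SLC40A1; the 4 highest are 2 CCR7-high and 2 left-out cells, from 2514 to 4803 CPM, and the next is at 435 CPM.

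HMOX1 encodes haem oxygenase 1, which opens the haem ring and frees its iron. It was at 561 CPM (559 to 563) in trophectoderm-like, 139.3 CPM (137.7 to 140.9) in epiblast-like and 91.1 CPM (89.5 to 92.8) in hypoblast-like cells. Trophectoderm-like cells ran from 26.5 to 3183 CPM with a median of 408 CPM. Epiblast-like cells ran from 3.54 to 2479 CPM with a median of 78.97 CPM, and hypoblast-like cells from 0 to 310 CPM with a median of 69.5 CPM. The difference was carried by many cells: 58 of 60 CCR7-low and 51 of 51 CCR7-high cells lay above the epiblast-like median, and 37 and 40 lay above the highest hypoblast-like cell. The trophectoderm-like level was 4.03 times the epiblast-like and 6.16 times the hypoblast-like level (log2 ratios 2.003 and 2.61). A single epiblast-like cell held 28.5% of the HMOX1 reads of its class, and without it the epiblast-like level was 101.2 CPM. At a clustering resolution of 1.5 the log2 ratio over epiblast-like cells was 1.02. CCR7-high cells were at 724 CPM (721 to 727) with a median of 569 CPM, and CCR7-low cells at 408 CPM (405 to 410) with a median of 367 CPM, a log2 ratio of 0.83, under 2-fold. HMOX2, the constitutive enzyme, was at 134.4, 92.7 and 99.3 CPM in epiblast-like, hypoblast-like and trophectoderm-like cells.

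Within a class the members moved together in part. These correlations are across cells of 1 sample, which share library preparation and scaling by total reads, and are descriptions. FTH1 and FTL had Spearman correlations of 0.62 in 50 epiblast-like cells, 0.46 in 32 hypoblast-like cells, 0.44 in 60 CCR7-low cells and 0.58 in 51 CCR7-high cells. FTH1 and HMOX1 had 0.60 in epiblast-like, 0.60 in CCR7-low and 0.70 in CCR7-high cells, and -0.23 in hypoblast-like cells. FTH1 and TFRC had 0.23 in epiblast-like, -0.57 in hypoblast-like, -0.22 in CCR7-low and 0.41 in CCR7-high cells, so that their sign differed between the clusters. For FTH1 the correlation with the total reads of a cell lay between -0.10 and 0.27 in the 4 clusters.

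Over all cells that passed and the 10537 genes read in at least 50% of them, the genes most like each member by Spearman correlation were as follows. FTL went with TAGLN2 and ANXA2, which bind actin and membranes, at 0.75 and 0.74. HMOX1 went with HSD17B1, an oestrogen-forming enzyme of trophoblast, and with ODC1, the first enzyme of polyamine synthesis, at 0.77 and 0.75. SLC40A1 went with FYB1, FST and SH2D4A at 0.50, 0.48 and 0.48, and FST, the activin antagonist follistatin, was at 200.7 CPM in CCR7-high and 9.68 CPM in CCR7-low cells. TFRC went with HSD17B12 at 0.51 and with ATP6AP1, a subunit of the proton pump that acidifies endosomes and lysosomes, at 0.47. The highest value was 0.39 for SLC11A2, with SLC16A1, and 0.42 for SLC39A14, with SSR3. With the mean of each class removed, part of this ranking changed. FTL was then nearest, among genes with a symbol, to FTH1 and ANXA2 at 0.58 and 0.55, HMOX1 to LYN and HSPB8 at 0.48 and 0.45, and SLC40A1 to FST and SH2D4A at 0.48 and 0.42, so that TAGLN2, HSD17B1, ODC1 and FYB1 were no longer among the 3 genes most like these members. The nearest gene was HSD17B12 for TFRC (0.47), F11R for SLC11A2 (0.39) and RCN1 for SLC39A14 (0.44). TF and SLC39A8 were read in too few cells for such a comparison.

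The wider set of iron and haem genes was divided in direction. Of the genes in 11 lists, 84 were read in at least 20 cells. In trophectoderm-like over epiblast-like cells 9 of 84 were higher and 10 lower, against 7.71% and 15.2% of all genes, with a median log2 ratio of -0.09 against -0.07. In hypoblast-like over epiblast-like cells 4 were higher and 7 lower, against 4.02% and 10.8% of all genes. In trophectoderm-like over hypoblast-like cells 10 were higher and 5 lower, against 8.3% and 8.68%. In CCR7-high over CCR7-low cells 3 were higher and 9 lower, against 5.57% and 4.03%. Of these called genes HAMP, HJV and BLVRA passed the limit of 20 cells only through the group where they were higher, and their calls are no support for the counts. Without them, a choice made after seeing the data, the higher and lower genes were 8 and 9, 3 and 6, 9 and 5, and 2 and 9 in the same order. Of 14 genes for mitochondrial iron and iron-sulfur clusters, 1 passed 2-fold in any comparison, SLC25A37, a mitochondrial iron importer, in trophectoderm-like over hypoblast-like cells. Among 6 genes of the transferrin cycle and the endosome 0 passed between the 3 classes. In CCR7-high over CCR7-low cells 3 of them were lower, namely STEAP3 and CYBRD1, which reduce iron, and the endosomal channel gene MCOLN1 (42.7 CPM in CCR7-low and 19.02 CPM in CCR7-high cells).

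Of 8 genes for iron sensing and the hepcidin axis, 3 were higher, namely ACO1, BMP6 and HAMP, and 0 lower in hypoblast-like over epiblast-like cells, with a median log2 ratio of -0.04. HAMP was read in 20 cells, 14 of them outside the hypoblast-like class. Of all genes, 4.02% were higher and 10.8% lower there, with a median of -0.12. ACO1, which encodes iron regulatory protein 1, the cytosolic aconitase, was at 501 CPM in hypoblast-like cells, 248.2 CPM in epiblast-like cells and 90.2 CPM in trophectoderm-like cells. IREB2, for the other iron regulatory protein, was at 94.03, 85.2 and 111.5 CPM in that order. BMP6, a signal that raises hepcidin, had 14.4 CPM in hypoblast-like cells, 0.516 CPM in epiblast-like cells and 1.28 CPM in trophectoderm-like cells. HAMP, the hepcidin gene, had 1.33, 0.121 and 0.221 CPM in the same order, levels near those of single cells. NEO1, a partner of hemojuvelin, was lower in trophectoderm-like cells, at 2.18 CPM against 13.1 CPM in epiblast-like and 11.1 CPM in hypoblast-like cells. HJV, the hemojuvelin gene, was higher there, at 3.47 CPM against 0.521 and 0.0934 CPM, and within these cells had 6.32 CPM in CCR7-high cells (a read in 30 of 51) and 0.779 CPM in CCR7-low cells (8 of 60).

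Ferritin turnover and haem genes gave a mixed picture. NCOA4, the receptor that takes ferritin to the lysosome, was at 366 CPM in trophectoderm-like, 211.8 CPM in epiblast-like and 163.6 CPM in hypoblast-like cells, with a log2 ratio of 1.16 over hypoblast-like cells. The iron chaperone genes PCBP1 and PCBP2 passed 2-fold in 0 comparisons. Of 8 haem synthesis genes 2 were higher and 1 lower in trophectoderm-like over epiblast-like cells, against 7.71% and 15.2% of all genes. ALAS1 and ALAD, for the first enzymes of the pathway, were the higher ones (106.7 against 45.1 CPM and 158.04 against 61.3 CPM). PPOX, near its end, was lower (3.75 against 16.6 CPM). FECH, which inserts the iron, had 34.1 CPM in trophectoderm-like, 32.1 CPM in epiblast-like and 11.1 CPM in hypoblast-like cells. Among 10 haem transport and breakdown genes, ABCG2, an efflux pump for porphyrins that placenta is rich in, was at 56.3 CPM in trophectoderm-like cells against 2.83 CPM and 5.31 CPM in epiblast-like and hypoblast-like cells. BLVRA, a biliverdin reductase that acts after haem oxygenase, was lower, at 0.451 CPM against 6.14 CPM in epiblast-like cells, while BLVRB was at 62.2 and 87.4 CPM. The haem exporter gene FLVCR1 was at 30.3 CPM in trophectoderm-like and 74.5 CPM in epiblast-like cells. Of the ferroxidases that act with ferroportin, HEPH and HEPHL1 were under 1 CPM in every class, and CP was at 7.72 CPM in epiblast-like cells, 2.29 CPM in hypoblast-like cells and 1.01 CPM in trophectoderm-like cells.

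**Figure D5:**
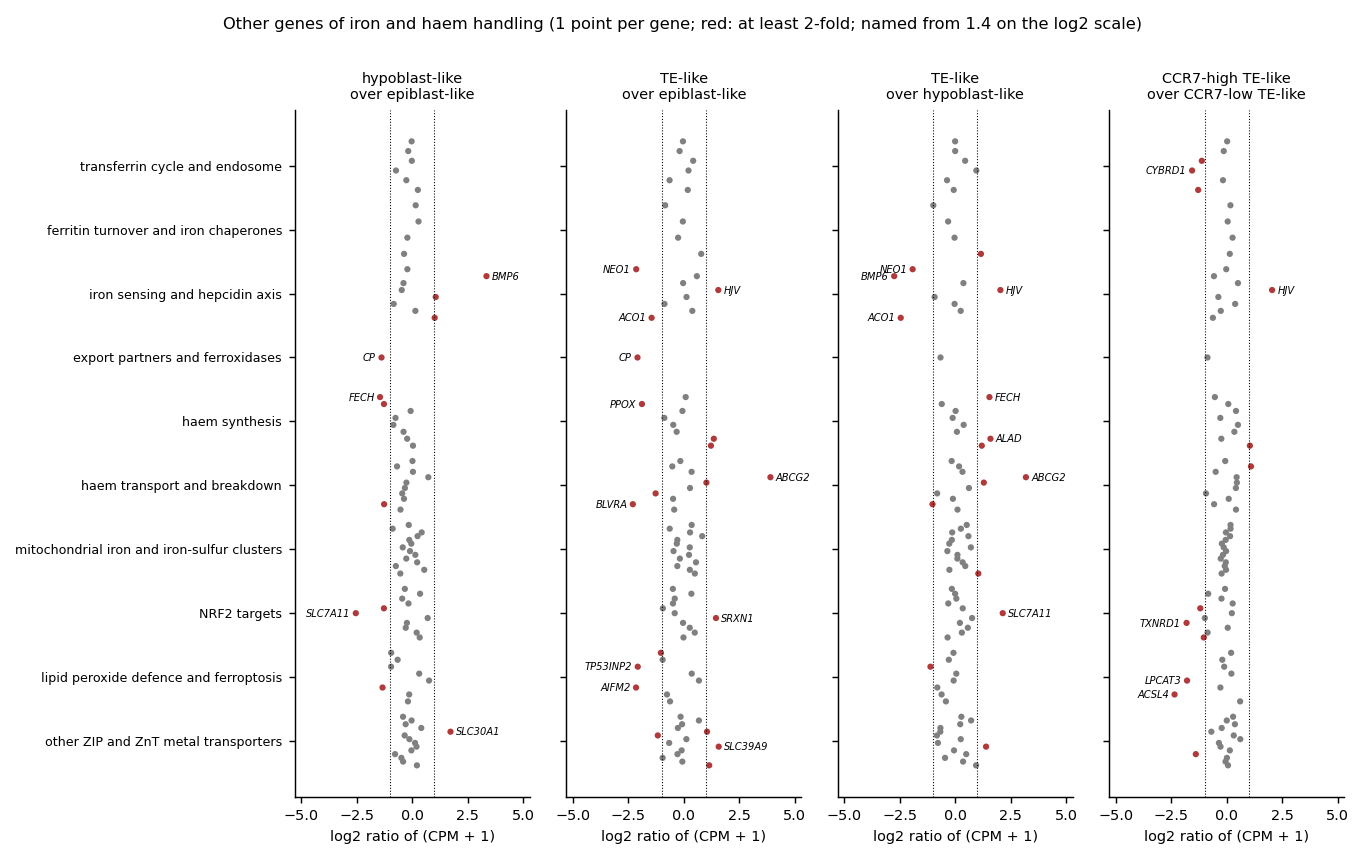
Log2 ratio of CPM + 1 (horizontal axes) for the 84 other iron, haem, antioxidant and metal transport genes by list, in 4 comparisons of classes, with TE for trophectoderm. Dotted lines mark 2-fold and red points lie past it; ABCG2 lies farthest right for trophectoderm-like over either other class and BMP6 for hypoblast-like over epiblast-like cells, and of the mitochondrial genes only SLC25A37 passes 2-fold.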

How the data were processed

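According to the study's methods, reads were trimmed with FastP, aligned with STAR to the chimpanzee genome Pan_tro_3.0 and counted per Ensembl gene. The submitters' processing notes list Trim Galore 0.6.6, STAR 2.7.7a and GRCh38. The deposited values are counts of reads that the authors did not normalize, for 33729 identifiers in single cells, 18783 of which have a symbol in the table used. Identifiers that share a symbol were summed.

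Cells with fewer than 4000 reads or 8000 detected genes were left out (24 cells), and the others had 1679888 to 25630392 reads. Scanpy 1.11.5 clustered them on genes read in at least 20 cells, with 50 components, 30 neighbours and Leiden (leidenalg 0.10.2) at a resolution of 1. Clusters were named from marker lists. Reads were summed per class, and a gene was called at a 2-fold ratio of CPM + 1. CPM have exact Poisson intervals, shares Clopper-Pearson intervals and medians order-statistic intervals, at 95%. For shares with a read, cells were thinned to 2532312 reads, which left out 20 shallower cells. Doublets were not called. The method was tested on simulated cells.

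The members, gene lists and comparisons were chosen with earlier results of these data known. The genes named are the members, up to 4 genes of each list with the highest CPM or largest ratio, the 3 genes most like each member read in at least 50% of cells, and markers; HAMP, BLVRB, PCBP1, PCBP2, HEPH and HEPHL1 were named besides, after their values were seen. Alternatives changed the cell and gene filters, clustering, scaling, pseudocount and fold. Of the genes most like the members, 1 is not reported here. BOLA2, HP, TDGF1, ERVW-1 and GYPB matched no identifier by symbol and were left out. Reads were not scaled by transcript length, so FTH1 and FTL are set against each other only as shares of reads compared between classes, and other levels are not compared between genes. Scripts ran under Python 3.11.15 with scipy 1.17.1 and pandas 2.3.3, and umap-learn 0.5.12 served 1 alternative.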

Additional observations from a re-analysis of the deposited data

Results flagged for a closer look

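The 24 cells with under 8000 detected genes entered no comparison described above, although 11 of them entered the alternative with at least 7000 detected genes. All 9 members were read in them above the limit that a count of 0 allows, 0.0685 CPM over these cells. Their summed levels were 4740 CPM for FTH1, 2885 CPM for FTL, 642 CPM for TFRC, 0.867 CPM for TF, 17.8 CPM for SLC11A2, 26.2 CPM for SLC39A14, 5.64 CPM for SLC39A8, 544 CPM for SLC40A1 and 423 CPM for HMOX1. Single cells held much of some of these levels: without the highest cell for each gene they were 196.7 CPM for HMOX1, 253.3 CPM for SLC40A1, 10.1 CPM for SLC11A2 and 0 for SLC39A8, and the median cell had 75.3 CPM of HMOX1. The FTH1 share of ferritin reads ran from 42.1% to 83.97% in these cells, with a median of 62.7%.

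SLC40A1 had reads in 9 of the 24 cells, and 2 of them, at 4803 and 2514 CPM, were among the 4 highest of all cells sequenced. The other 2 of these 4 are the CCR7-high cells described above. The 2 left-out cells had 7444 and 7524 detected genes from 2795839 and 3863814 reads. They carried 8971 and 16062 CPM of CGA, 10877 and 8585 CPM of SDC1, and 4534 and 946 CPM of ERVFRD-1, and their trophectoderm markers summed to 8249 and 20058 CPM. The 4 cells with the most SLC40A1 thus all had CGA, SDC1 and ERVFRD-1 above 100 CPM. The pair with fewer detected genes had these markers at higher levels. INSL4, the other marker gene matched, was at 0 and 3.62 CPM in this pair and at 0 in both CCR7-high cells. A filter on detected genes therefore left out part of the cells with the highest levels of the exporter. The TFRC levels of these left-out cells were 2651 and 374 CPM, and SLC39A14 and SLC39A8 were at 0 in both. SLC39A8 in the left-out cells came from 1 cell, at 273 CPM, above the 28.6 CPM of the highest cell that passed.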

How the results depend on the processing

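No paired analysis was possible because all cells belong to 1 group with no replicates. The FTH1 shares did not move beyond the interval of the median in any of 52 alternative values. Settings that changed only the totals could not move them, because totals cancel in a share. Neither could the use of 1 identifier per symbol, since each ferritin gene has only 1. Those values are no support. Several of the alternative clusterings also gave classes of unchanged sizes. Of the alternative counts of members, 19 moved by over 1.5 times. Members called lower in trophectoderm-like over epiblast-like cells went from 0 to 1 with at least 7000 detected genes, with genes read in at least 10 cells, with all genes with a read (TF enters under these 3) and at resolution 1.5. Against hypoblast-like cells the count also went from 0 to 1 under the first 3 of these, with Leiden on UMAP coordinates and with a fold of 1.5. In hypoblast-like over epiblast-like cells the count of lower members went from 0 to 2 at resolution 1.5 and at a fold of 1.5 and to 1 with a pseudocount of 0.1. The count of higher members there fell from 2 to 1 with a pseudocount of 10 and at a fold of 4. At a fold of 4 it was 2 in place of 5 for trophectoderm-like over epiblast-like cells. For CCR7-high over CCR7-low cells it was 1 in place of 2 with the median of single-cell CPM, with a pseudocount of 10 and at a fold of 4, and 0 without mixed cells, where SLC40A1 was read in too few cells to be counted. The mixed cells, with 3 markers at 10 CPM of more than 1 class, included all 50 epiblast-like and all 32 hypoblast-like cells, and no other comparison could be made.

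Among ratios past 2-fold the sign was reversed for SLC40A1 in trophectoderm-like over epiblast-like cells at resolution 1.5 (-2.79) and for TF in trophectoderm-like over hypoblast-like cells with Leiden on UMAP coordinates (0.031), and the first followed the move of the 2 highest SLC40A1 cells. Ratios under 2-fold also changed sign in some alternatives: TFRC, TF and SLC40A1 in hypoblast-like over epiblast-like cells, and SLC39A14 in trophectoderm-like over hypoblast-like and in CCR7-high over CCR7-low cells. A stricter mixed-cell rule (4 markers at 100 CPM, 31 cells) and leaving out the highest cells of each group were chosen after seeing the data and moved no count past 1.5 times, although in hypoblast-like over epiblast-like cells, without the 2 highest cells of each group, SLC39A14 fell under 2-fold (0.90) and SLC40A1 passed it (1.36). With 1 sample no difference between classes has a replicate check, and the split of the trophectoderm-like cells was less settled than the classes, with 35 to 46 CCR7-high cells in the alternative clusterings against 51.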

Other observations

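Antioxidant genes near the iron pathway differed within the trophectoderm-like cells. Of 11 targets or regulators of NRF2, a factor that also acts on HMOX1 and the ferritin genes, 3 were lower and 0 higher in CCR7-high over CCR7-low cells, against 4.03% and 5.57% of all genes, with a median log2 ratio of -0.84 against 0.02. TXNRD1, thioredoxin reductase, was at 1459 CPM in CCR7-low and 414 CPM in CCR7-high cells, and NQO1, a quinone reductase, at 250.2 and 121.2 CPM. HMOX1 was at 408 and 724 CPM in the same order, under 2-fold. SLC7A11, the cystine importer, was lower in hypoblast-like cells (4.38 CPM) than in epiblast-like (30.4 CPM) or trophectoderm-like ones (22.7 CPM).

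Of 8 genes for lipid peroxide defence and ferroptosis, 3 were lower and 0 higher in trophectoderm-like over epiblast-like cells, namely AIFM2, TP53INP2 and CISD2, with a median log2 ratio of -0.86. Of all genes, 15.2% were lower and 7.71% higher in this comparison, with a median of -0.07. GPX4, the lipid peroxide reductase, was at 393, 342 and 254.9 CPM in epiblast-like, hypoblast-like and trophectoderm-like cells and passed 2-fold in no comparison. ACSL4 and LPCAT3, which build polyunsaturated phospholipids, were lower in CCR7-high cells, at 0.646 against 7.43 CPM and 175.5 against 611 CPM. Of 14 other zinc and metal transporters, SLC39A1, SLC39A9 and SLC30A1 were higher in trophectoderm-like than in epiblast-like cells and SLC39A13 was lower. The zinc exporter gene SLC30A1 had 22.6 CPM in epiblast-like cells, 47.8 CPM in trophectoderm-like cells and its highest level, 77 CPM, among hypoblast-like cells.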
